A study of Mus musculus with 6 samples.

Results

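The immediate early genes were read on every array of a study of splenic B cells with defective Btk. The set consists of 10 listed genes, namely Fos, Fosb, Jun, Junb, Jund, Egr1, Egr2, Ier2, Dusp1 and Nr4a1. Among all genes named by a single symbol on the array they are 10 of 8251. All probe sets annotated to one of these symbols were taken, which gave 13 probe sets of the 12422 on the array that are not controls. Of these 13, 11 passed the filter on dim probe sets, and each of the 10 genes kept at least 1. The 2 left out read at most 23.1 on any array for a further Fos probe set and at most 29.0 for a further Egr1 probe set, and they carry little signal.

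Total RNA of whole splenic B cells from adult mice was hybridised to 6 MG_U74Av2 arrays, 2 for each of 3 groups. Xid mice are of the CBA/N strain and have a Btk protein with the substitution R28C. The Btk KO group is a knockout line made by crossing Btk KO/SW129 mice to CBA for 9 generations, and the CBA group is the wild type. Xid is a strain of its own and Btk KO a crossed line, so a defect of Btk and other differences between strains cannot be told apart. The arrays numbered 1 and those numbered 2 form separate runs with RNA from different mice, each with 1 array per group. Whether animals were pooled is not stated, so the spread between arrays may be partly technical.

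Immediate early genes are switched on within minutes of a stimulus, without new protein synthesis, and their messengers are short-lived. In B cells the antigen receptor induces them through Btk, phospholipase C, calcium, protein kinase C and the MAP kinases, which act on factors such as SRF, Elk1 and CREB at the promoters. Taking a tissue apart and handling the cells is also known to induce them. Fos and Jun proteins pair to form the transcription factor AP-1, while the Egr proteins and Nr4a1 are transcription factors of their own. Dusp1 encodes a phosphatase that switches MAP kinases off.

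The promoters of Fos, Fosb, Jun and Nr4a1 are shown as examples of the Fos, Jun and Nr4a families whose values turn up in most comparisons below, each with at least 1 match to the motifs named here. RefSeq promoter windows of GRCm38.p6, from 250 bases before to 50 bases after an annotated start, were at hand for 8 of the 10 genes, and not for Egr1 and Ier2. Motifs were searched on both strands, and capitals mark each match to TGACG (the core of a cAMP response element), TGACNTCA (a cAMP or Jun response element, which can overlap it, and which was added after the letters had been seen) and GCGNGGGCG (an Egr site).
Fos (chr12:85473640-85473939, plus strand): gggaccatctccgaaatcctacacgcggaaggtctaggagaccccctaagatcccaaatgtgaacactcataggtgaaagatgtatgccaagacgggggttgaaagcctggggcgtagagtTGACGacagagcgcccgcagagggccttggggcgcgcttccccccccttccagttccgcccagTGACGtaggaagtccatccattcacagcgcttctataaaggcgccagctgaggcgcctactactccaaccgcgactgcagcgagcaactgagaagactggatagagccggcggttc
Fosb (chr7:19309996-19310295, minus strand): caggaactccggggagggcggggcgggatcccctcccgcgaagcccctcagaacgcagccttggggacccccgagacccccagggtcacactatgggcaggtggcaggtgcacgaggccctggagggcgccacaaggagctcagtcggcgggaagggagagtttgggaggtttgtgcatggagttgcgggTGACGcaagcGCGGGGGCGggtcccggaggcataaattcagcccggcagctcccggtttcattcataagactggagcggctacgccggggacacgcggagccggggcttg
Jun (chr4:95052173-95052472, minus strand): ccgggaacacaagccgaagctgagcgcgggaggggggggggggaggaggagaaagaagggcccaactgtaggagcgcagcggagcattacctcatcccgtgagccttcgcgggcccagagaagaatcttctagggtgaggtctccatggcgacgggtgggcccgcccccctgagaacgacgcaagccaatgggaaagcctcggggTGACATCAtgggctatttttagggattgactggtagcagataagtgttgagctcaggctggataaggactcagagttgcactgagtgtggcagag
Nr4a1 (chr15:101266596-101266895, plus strand): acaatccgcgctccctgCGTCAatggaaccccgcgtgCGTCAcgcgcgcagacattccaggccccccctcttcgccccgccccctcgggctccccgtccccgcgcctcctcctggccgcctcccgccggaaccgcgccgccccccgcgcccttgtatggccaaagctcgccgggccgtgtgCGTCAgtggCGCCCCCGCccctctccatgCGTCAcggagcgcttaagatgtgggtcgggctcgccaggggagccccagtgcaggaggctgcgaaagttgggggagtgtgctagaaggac
TGACG occurred in the windows of 6 of these 8 genes, at 129 and 66 bases before the start in Fos, at 60 bases before it in Fosb, and at 4 places in Nr4a1. It was held by 20.8% of all 32851 RefSeq windows. A gene was counted if any of its windows matched, and Egr2 has several windows. Counts of genes and shares of windows are therefore unlike units, here and for the motifs below. TGACNTCA occurred in Jun, at 45 bases before the start, and in Dusp1, against 8.83% of all windows. GCGNGGGCG occurred in Fosb, 50 bases before the start, and in Nr4a1, against 5.55% of all windows. The CArG box bound by SRF was matched in Egr2 alone among the 8 genes, against 1.63% of all windows, and the AP-1 site TGANTCA in none of the 8, against 7.81% of all windows. A match is a description of letters and says nothing of binding in these cells, and several of these genes are known to have further elements outside such windows.

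Values are linear intensities in the authors' scaled units, and the levels of different probe sets are not set against each other. The median intensity per array lay between 32.5 and 37.6. Btk itself measured 841 and 643.9 in Xid, 276.1 and 173.6 in Btk KO, and 874.1 and 749.8 in CBA, so both Btk KO arrays lay below all others (limma adjusted p against CBA 0.0515, and 0.0053 with the run as a block). Where that probe set lies relative to the deleted part is not known here. For the Gapdh controls the 3' to 5' signal ratio was 10.4 on the array of Btk KO in run 1 and at most 1.61 on the other 5 arrays. The ratio also differed between runs, with 0.756 to 0.868 on the 3 arrays of run 2 and 1.16 to 10.4 on those of run 1. All 6 measured B cell markers, among them Cd79a of the antigen receptor, passed the filter. Precision is limited by having 2 arrays per group.

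The main pattern was a difference of the mutant arrays from the CBA array that was present in run 1 and largely missing in run 2. Each within-run difference sets 1 array against 1, and both lines share the CBA array of the run. The 11 probe sets are not replicates of a group. In run 1 all 11 probe sets were higher in Xid than in CBA, and 9 of 11 were higher in Btk KO than in CBA. In run 2 the counts were 3 of 11 for Xid and 7 of 11 for Btk KO. For comparison, among all 7453 probe sets tested, 47.3% were higher in Xid and 50.2% in Btk KO in run 1, and 54.9% and 53.9% were in run 2. The median difference of the 11 probe sets from CBA was 1.25 in run 1 and -0.08 in run 2 for Xid, and 0.63 and 0.07 for Btk KO, on the scale of log2(intensity + 6). The medians of all probe sets tested lay between -0.02 and 0.04 in these 4 contrasts. No probe set of the 10 genes passed the test of any pair of groups over both runs.

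**Figure D1:**
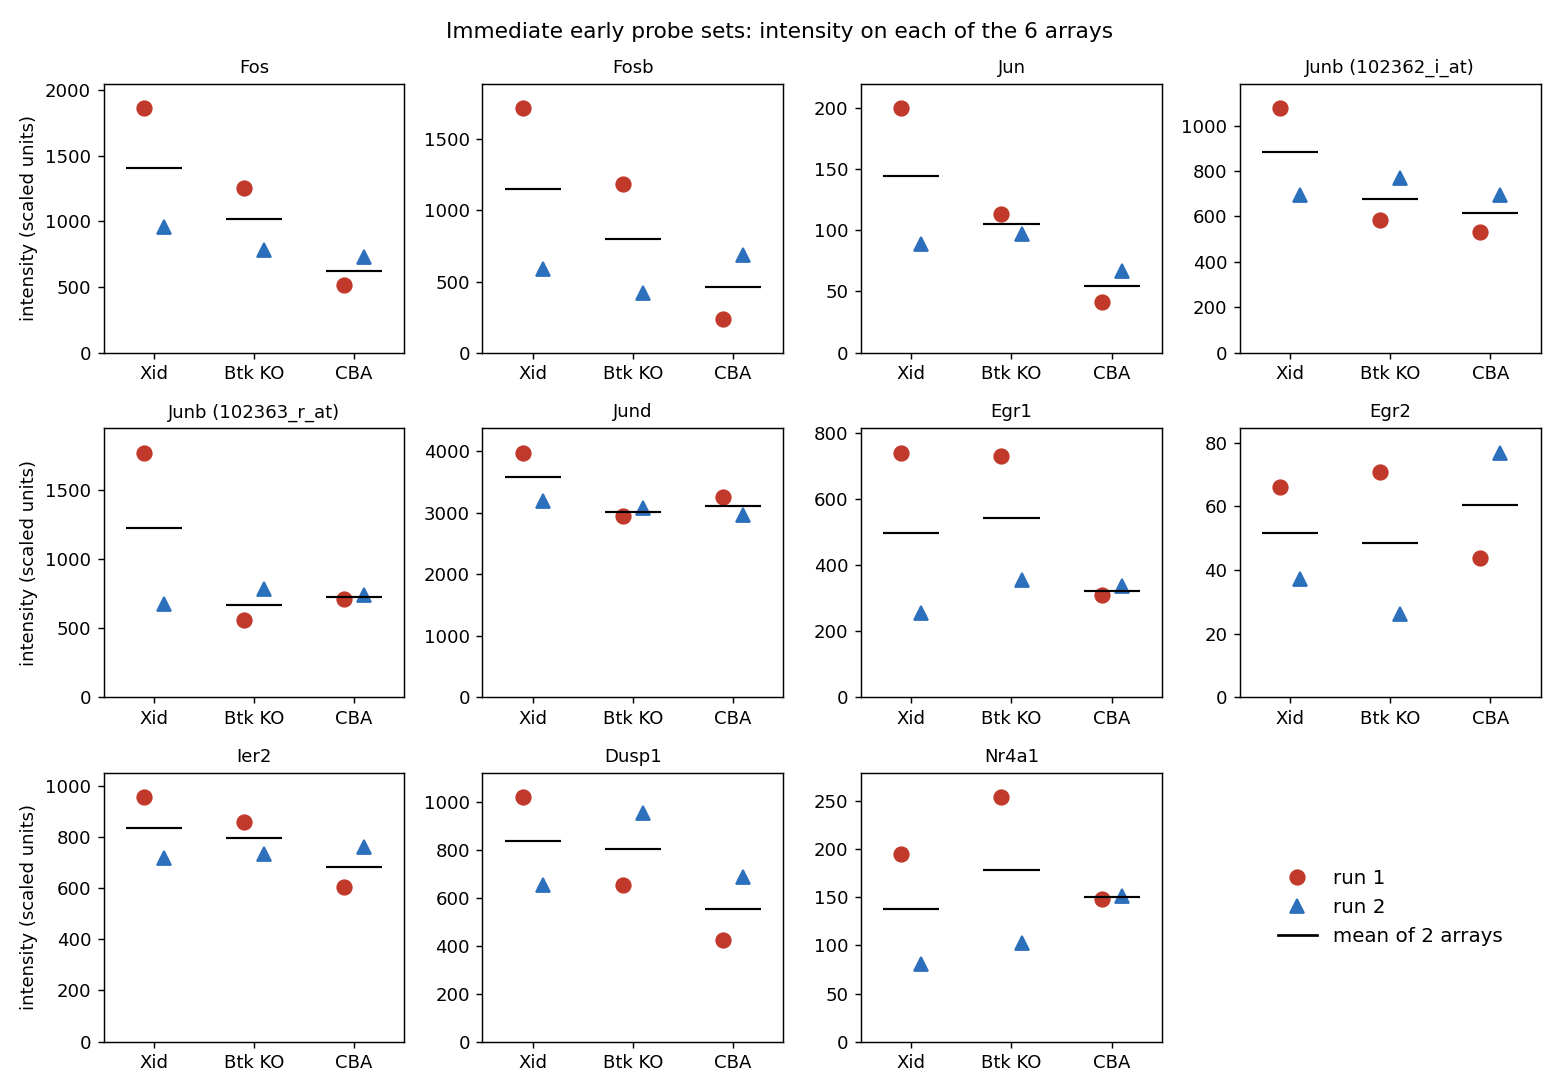
Intensity in scaled units (linear axis from 0) of the 11 probe sets that passed the filter, with 1 panel per probe set and Xid, Btk KO and CBA side by side; circles are arrays of run 1, triangles arrays of run 2, and the bar is the mean of the 2 arrays. The Xid array of run 1 is the highest of the 6 for 9 of the 11 probe sets, and the CBA array of run 1 the lowest for 6.

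Over the 6 arrays, the Xid array of run 1 was the highest of the 6 for 9 of the 11 probe sets, which stand for 8 of the 10 genes, against 14.7% of all probe sets tested. The CBA array of run 1 was the lowest for 6 of the 11, against 12.4% of all. The exceptions at the top were Nr4a1, highest in Btk KO of run 1, and Egr2, highest in CBA of run 2. The arrays of run 1 came from a single chip lot and those of run 2 from a different lot. Btk KO of run 1 was hybridised alone on its own day, while CBA and Xid of run 1 shared a day. All arrays of run 2 shared a further day. Differences between the runs therefore cannot be told apart from lot and day.

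Fos, the partner of the Jun proteins in AP-1, measured 1863 and 957.1 in Xid, 1254.4 and 785.6 in Btk KO, and 516.8 and 727.9 in CBA (runs 1 and 2 of each group). Both arrays of each mutant line lay above both CBA arrays, as 17.0% of all probe sets tested did in Xid and 20.0% in Btk KO. The means were 1410.0 ± 641 in Xid, 1020.0 ± 331 in Btk KO and 622 ± 149 in CBA (SD, n = 2 each). The log2 difference from CBA was 1.11 ± 0.37 in Xid (SE, limma adjusted p = 0.823) and 0.69 ± 0.37 in Btk KO (0.684). Neither passed. Leaving out single arrays moved it between 0.64 and 1.59 in Xid and between 0.35 and 1.02 in Btk KO. The excess over CBA was 3.60-fold in Xid and 2.43-fold in Btk KO within run 1. Within run 2 it was 1.31-fold and 1.08-fold.

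Fosb, a second Fos protein, had the widest spread of the set within groups. It measured 1718.8 and 585 in Xid, 1183.1 and 418.7 in Btk KO, and 235.9 and 688.8 in CBA. In run 1 it was 7.29-fold higher in Xid and 5.01-fold higher in Btk KO than in CBA, the largest differences of any of the 11 probe sets. In run 2 both mutant arrays lay below the CBA array, at 0.849 and 0.608 of it. The groups overlapped. Over both runs the difference from CBA was 1.30 ± 0.70 in Xid and 0.79 ± 0.70 in Btk KO, with limma adjusted p = 0.999 and 0.837. Leaving out single arrays moved it between 0.53 and 2.07 in Xid and between 0.0325 and 1.56 in Btk KO.

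Jun, the founding member of the Jun family, measured 199.9 and 89.1 in Xid, 113 and 97 in Btk KO, and 41.8 and 66.5 in CBA. It was the single gene besides Fos that was higher in both lines in both runs without overlap of groups. Taken by line, 2 of the 11 probe sets lay above both CBA arrays in Xid, against 17.0% of all tested. In Btk KO it was 3 of the 11, against 20.0% of all, so these counts were near the shares over all. The excess over CBA was 4.78-fold in Xid and 2.70-fold in Btk KO within run 1, and 1.34-fold and 1.46-fold within run 2. The log2 difference was 1.25 ± 0.39 in Xid and 0.91 ± 0.39 in Btk KO, and single arrays left out moved it between 0.69 and 1.81 in Xid and between 0.61 and 1.21 in Btk KO. The limma adjusted p was 0.721 and 0.564, and with the run as a block 0.332 and 0.298. Jun therefore had the smallest adjusted p of the 10 genes in Btk KO, and still did not pass.

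Junb and Jund are Jun family members with weaker transactivating activity in many settings. The array holds 2 Junb probe sets, whose names end in i_at and r_at. The Junb i_at probe set measured 1077.3 and 692.7 in Xid, 584.8 and 767.6 in Btk KO, and 530.4 and 695.8 in CBA. The Junb r_at probe set measured 1771.8 and 676 in Xid, 558.6 and 780 in Btk KO, and 712.1 and 740.1 in CBA. Both were high on the Xid array of run 1, by 2.03-fold and 2.49-fold over CBA of that run. In Btk KO they did not share the run 1 excess of Fos, Fosb and Jun, with log2 differences of 0.14 and -0.35 from CBA in that run. The pair differed in sign for Btk KO against CBA over both runs, at 0.14 ± 0.28 and -0.14 ± 0.42.

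Jund, which is expressed in resting cells and is not strongly inducible, varied least over the 6 arrays. It measured 3976.1 and 3183.2 in Xid, 2942.3 and 3074.7 in Btk KO, and 3249.6 and 2960.7 in CBA. Its largest difference from CBA within a run was 0.29 on the log2 scale, for Xid in run 1. Both Btk KO arrays lay below both Xid arrays, as did 12.3% of all probe sets tested, with a difference of -0.24 ± 0.23 (limma adjusted p = 0.998).

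Egr1, a zinc finger factor induced by MAP kinase signalling, measured 739.3 and 255 in Xid, 727.9 and 353 in Btk KO, and 308.3 and 335.8 in CBA. The mutant arrays of run 1 were both above the CBA array of that run, by 2.40-fold for Xid and 2.36-fold for Btk KO. In run 2 the ratios were 0.759 and 1.05. The Btk KO arrays lay above both CBA arrays, as 20.0% of all probe sets tested did. The Xid arrays lay on either side of the CBA arrays. The differences from CBA were 0.43 ± 0.51 in Xid and 0.65 ± 0.51 in Btk KO, and neither passed (limma adjusted p = 0.999 and 0.802).

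Egr2, a relative of Egr1 known in lymphocytes as a regulator of activation, measured 66.2 and 37 in Xid, 70.9 and 26.2 in Btk KO, and 43.7 and 76.9 in CBA. Its sign turned between the runs in both lines. The log2 difference from CBA was 0.54 in Xid and 0.63 in Btk KO within run 1, and -0.95 and -1.36 within run 2. It did not pass in either line (limma adjusted p = 0.999 in Xid and 0.910 in Btk KO).

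Nr4a1, an orphan nuclear receptor whose promoter is used as a readout of antigen receptor signals, measured 194.9 and 80.6 in Xid, 254.2 and 103 in Btk KO, and 148 and 151.7 in CBA. The CBA arrays were nearly equal, and the mutant arrays stood above them in run 1 and below them in run 2. Within run 1 the log2 difference from CBA was 0.38 in Xid and 0.76 in Btk KO. Within run 2 it was -0.86 and -0.53. The means of 138 ± 80.8 in Xid, 179 ± 107 in Btk KO and 150 ± 2.62 in CBA hide this turn (SD, n = 2 each).

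Ier2, an early response gene of the nucleus, measured 956 and 718.2 in Xid, 858.4 and 734.8 in Btk KO, and 603 and 759.7 in CBA. Dusp1 measured 1020.2 and 655.2 in Xid, 654.4 and 955.4 in Btk KO, and 422 and 684.9 in CBA. Ier2 followed the pattern of Fosb on a smaller scale, with log2 differences from CBA of 0.66 in Xid and 0.51 in Btk KO within run 1, and -0.08 and -0.05 within run 2. Dusp1 in Btk KO was higher than CBA in both runs, by 0.63 and 0.48, whereas in Xid it was higher by 1.26 in run 1 and differed by -0.06 in run 2. None of these passed: limma adjusted p was 0.999 for both genes in Xid, and 0.866 for Ier2 and 0.727 for Dusp1 in Btk KO.

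**Figure D2:**
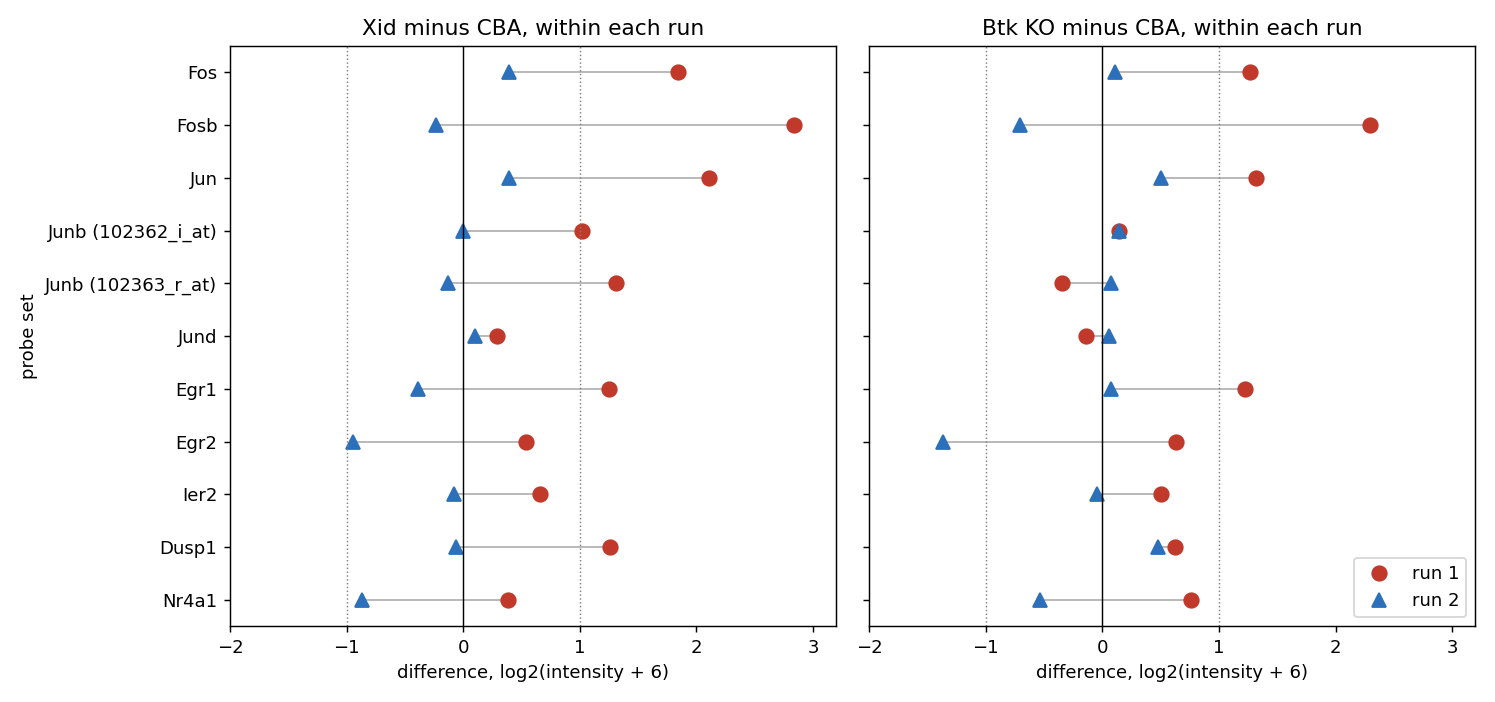
Difference from CBA within each run, in log2(intensity + 6), for Xid (left) and Btk KO (right); each row is 1 of the 11 probe sets, circles are run 1, triangles run 2, and dotted lines mark differences of 1 and -1. In run 1 the values reach 2.83 for Fosb in Xid and 2.30 in Btk KO, while no triangle lies above 0.51.

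The comparison of Xid with CBA asks whether levels of these genes differ in B cells with a point mutation of Btk. Over both runs 0 of the 11 probe sets passed in limma, where 0.0671% of all probe sets tested did, and 2 of the 11, for Fos and Jun, had an unadjusted p under 0.05, against 4.43% of all. With the run as a block the count was again 0, against 0.483% of all, with 2 at an unadjusted p under 0.05, against 8.1% of all. Within run 1 alone, 7 of the 11 were higher in Xid by a log2 difference of at least 1, against 2.64% of all probe sets tested. They stand for Fos, Fosb, Jun, Junb, Egr1 and Dusp1. Within run 2 there were 0, against 2.98% of all. Each within-run value compares a single array per group and has no replicate check. Between the runs the sign turned for 8 of the 11 probe sets, higher in run 1 and lower in run 2, against 19.4% of all, and 3 were higher in both runs, against 27.8% of all.

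The comparison of Btk KO with CBA puts the same question to the knockout line. It shares the CBA arrays with the comparison above. Over both runs 0 of the 11 passed in limma, against 0.174% of all, and 0 had an unadjusted p under 0.05, against 8.83% of all. With the block 0 passed, against 2.23% of all, and Jun alone had an unadjusted p under 0.05, against 15.1% of all. Within run 1, 4 of the 11 were higher in Btk KO by at least 1 on the log2 scale, namely Fos, Fosb, Jun and Egr1, against 5.26% of all probe sets tested. Within run 2 there were 0, against 4.08% of all, and Egr2 alone was lower by at least 1, at -1.36, against 2.03% of all. Over the runs 5 of the 11 were higher in both, against 31.4% of all, and 4 were higher in run 1 and lower in run 2, against 18.8%. The run 1 values rest on the Btk KO array with the Gapdh ratio of 10.4, and the part of RNA quality in them was not tested.

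The comparison of Btk KO with Xid asks whether loss of the kinase and its point mutation differ. No probe set passed (0 in limma with and without the block, against 0.188% and 0.0403% of all), and 0 had an unadjusted p under 0.05 in either fit, against 7.31% of all with the block and 3.61% without. The median difference over the 11 probe sets was -0.54 in run 1 and 0.12 in run 2. The largest was for the Junb r_at probe set in run 1, at -1.65, the only one of the 11 lower by at least 1 in that run, against 4.59% of all. Over both runs the differences ranged from -0.73 ± 0.42 for the Junb r_at probe set to 0.35 ± 0.49 for Nr4a1. Their unadjusted limma p was 0.125 and 0.495, so the sign of neither was settled.

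The difference between the runs was then taken within each group. In Xid all 11 probe sets were lower in run 2 than in run 1, against 48.7% of all probe sets tested, with a median of -0.96, and 5 were lower by at least 1, against 1.8% of all. In Btk KO 7 of the 11 were lower in run 2, against 51.8% of all, with a median of -0.22, and 4 were lower by at least 1, against 3.26% of all. In CBA 1 of the 11, Jund, was lower in run 2, against 55.8% of all, the median was 0.39, and Fosb alone was higher by at least 1, against 2.32% of all. Fos, Fosb, Jun, Egr1, Egr2, Ier2 and Nr4a1 were lower in run 2 in both mutant lines and higher in run 2 in CBA. That is 7 of the 11 probe sets, against 9.58% of all. Whether the run difference itself differs between CBA and the mutant lines was not tested.

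A limma fit of the run with the group as a covariate called 0 of the 11 probe sets, against 1.65% of all. Egr1, at -0.81 ± 0.28 (limma adjusted p = 0.175), and Nr4a1, at -0.81 ± 0.26 (0.155), had the 2 smallest p-values, both with an unadjusted p under 0.05, against 20.2% of all. This count depended on CBA. When either CBA array was left out, so that Xid and Btk KO alone set the run difference, Fosb at -1.51, Egr1 at -1.27 and Nr4a1 at -1.24 fell in run 2. Their limma adjusted p was 0.0239, 0.0376 and 0.0387 without CBA of run 1. Without CBA of run 2 it was 0.0209, 0.0343 and 0.0361. Of all probe sets 0.456% fell without CBA of run 1 and 0.577% without CBA of run 2.

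**Figure D3:**
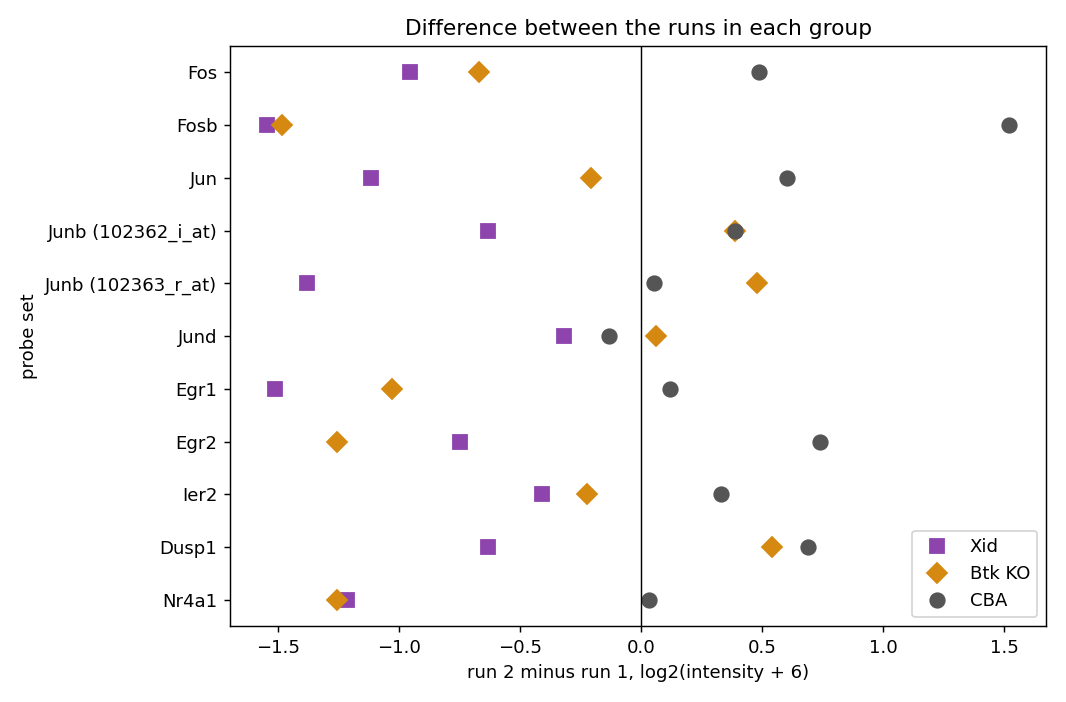
Run 2 minus run 1 in log2(intensity + 6) for each of the 11 probe sets, with squares for Xid, diamonds for Btk KO and circles for CBA. The squares all lie left of 0, and 10 of the 11 circles lie right of it, that of Nr4a1 at 0.03.

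Other genes of the response were read from lists chosen with earlier results of these data known. Of 34 further primary response genes on the array, 30 passed the filter, each by its brightest probe set. Within run 1, 24 of the 30 were higher in Xid than in CBA and 21 of 30 in Btk KO, with medians of 0.67 and 0.57, against 47.3% and 50.2% of all probe sets tested. Within run 2, 15 of 30 were higher in each line, with medians of 0.04 and 0.02, against 54.9% and 53.9% of all. None passed over both runs (0 in limma for either line, against 0.0671% of all in Xid and 0.174% in Btk KO). In each line 4 had an unadjusted p under 0.05, against 4.43% of all in Xid and 8.83% in Btk KO. With the run as a block 1 of the 30, Sgk1, rose in Btk KO, against 2.23% of all called, and 0 passed in Xid, against 0.483%.

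Klf4, a Krüppel-like factor linked to B cell quiescence, measured 251.9 and 127.1 in Xid, 166.2 and 77.5 in Btk KO, and 46.9 and 87.3 in CBA, highest on the Xid array and lowest on the CBA array of run 1, as Fos was. Sgk1, a serum and glucocorticoid induced kinase, behaved otherwise. It measured 95.5 and 125.3 in Xid, 107.6 and 134.9 in Btk KO, and 50.2 and 63.8 in CBA, which was 1.90-fold and 1.96-fold CBA in Xid and 2.14-fold and 2.11-fold CBA in Btk KO, in runs 1 and 2. Its log2 difference was 1.01 ± 0.26 in Btk KO (limma adjusted p = 0.245, and 0.0443 with the block) and 0.88 ± 0.26 in Xid (0.615 and 0.157). Cd83, an activation marker of B cells, ran the other way, at 250.4 and 314.1 in Xid, 235.5 and 232.8 in Btk KO, and 337.4 and 440.5 in CBA, and did not pass.

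Of the AP-1 partners and relatives, 8 of 12 on the array passed the filter. In limma 0 passed in either line, against 0.0671% of all probe sets tested in Xid and 0.174% in Btk KO. In each line 2 had an unadjusted p under 0.05, against 4.43% of all in Xid and 8.83% in Btk KO. Atf3, a stress-induced member of the ATF family, measured 121.9 and 46.3 in Xid, 135.6 and 82.1 in Btk KO, and 28 and 37.9 in CBA. Its ratio to CBA within runs 1 and 2 was 4.35 and 1.22 in Xid, and 4.84 and 2.17 in Btk KO. Mafk, a small Maf protein, was 2.22-fold and 2.99-fold above CBA in Xid and Btk KO of run 1, and 0.859 and 1.28 times CBA in run 2. Of 4 relatives and co-regulators of Egr and Nr4a proteins on the array, Nab1 and Nab2 passed the filter. In limma 0 passed in either line and 1 in each had an unadjusted p under 0.05, against the same shares of all. Nab2, a corepressor that binds Egr proteins and is itself an Egr target, was lower than CBA in both lines. It measured 47.4 and 93.3 in Xid, 52 and 70.1 in Btk KO, and 134.4 and 118.4 in CBA, with log2 differences of -0.86 ± 0.33 and -0.99 ± 0.33 that did not pass (limma adjusted p = 0.999 and 0.406).

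The heat shock and handling stress list ran the other way between the runs in Xid. Its median difference from CBA was 0.08 in run 1 and 0.64 in run 2 for Xid, with 7 and 12 of 13 genes higher, so here the larger value lay in run 2. For Btk KO it was 0.42 and 0.26, with 12 and 10 of 13 higher. Of all probe sets tested, 47.3% and 54.9% were higher in Xid in runs 1 and 2, and 50.2% and 53.9% in Btk KO. None of the 13 genes passed without the block (0 in limma, against 0.0671% of all probe sets tested in Xid and 0.174% in Btk KO). In each line 2 had an unadjusted p under 0.05, against 4.43% of all in Xid and 8.83% in Btk KO. With the block 1 of the 13 was called in Btk KO, against 2.23% of all. Hmox1, heme oxygenase, which red pulp macrophages express strongly, rose in Btk KO with the block, at 2751.8 and 2939.7 against 750.1 and 978.4 in CBA (limma adjusted p = 0.00629, and 0.0515 without the block). Hspa1b, an inducible Hsp70 with a near-identical copy in Hspa1a, measured 33.3 and 157.3 in Xid, 88.9 and 15.4 in Btk KO, and 10.4 and 17.9 in CBA. Its 2 high arrays were thus Xid of run 2 and Btk KO of run 1.

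Of 11 macrophage and monocyte markers that passed the filter, 10 were higher in Xid and 10 in Btk KO in run 1, and 11 in each line in run 2. Of all probe sets tested, 47.3% were higher in Xid and 50.2% in Btk KO in run 1, and 54.9% and 53.9% in run 2. The markers had medians of 1.30 and 1.34 for Xid and 2.03 and 1.69 for Btk KO in runs 1 and 2. Their summed intensity was 4512.5 and 6868.6 in Xid, 6768.1 and 9416.6 in Btk KO, and 1807.8 and 2803.7 in CBA. In limma 0 of the 11 passed in Xid, against 0.0671% of all probe sets tested, and 3 rose in Btk KO, against 0.174% of all. With the block 6 rose in Xid, against 0.483% of all, and 9 in Btk KO, against 2.23% of all. Marco was on the array and did not pass the filter, and no listed marker of any cell type was at 0 on an array. Macrophages, neutrophils and other cells also express immediate early genes, and in bulk RNA more cells of a type and more RNA per cell cannot be told apart. The part of cell composition in the values above was not tested.

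Of 6 B cell markers, 3 were higher in Xid than in CBA in run 1 and 0 in run 2, and 0 were higher in Btk KO in either run. Their medians were -0.03 in run 1 and -0.42 in run 2 for Xid, and -0.48 and -0.59 for Btk KO. No B cell marker passed (0 in limma in either line, with 0 in Xid and 3 in Btk KO at an unadjusted p under 0.05). Of all probe sets tested, 0.0671% passed in Xid and 0.174% in Btk KO, and 0.483% and 2.23% with the block. An unadjusted p under 0.05 without the block was held by 4.43% in Xid and 8.83% in Btk KO. These shares stand beside each count in this paragraph of markers that passed or had an unadjusted p under 0.05. Beside the counts of markers higher within a run stand other shares. Of all probe sets tested, 47.3% were higher in Xid and 50.2% in Btk KO in run 1, and 54.9% and 53.9% in run 2. Of 7 neutrophil markers, 6 were higher in Btk KO in run 1 and 7 in run 2, with medians of 1.80 and 2.35, and 2 of them, S100a9 and Camp, rose there in limma (4 with the run as a block). Their medians in Xid were 0.33 and 0.03, and 0 passed. NK cell markers had medians of 0.33 and 0.58 in Xid and 1.29 and 1.77 in Btk KO over 5 genes. Red cell precursor markers had medians of 0.26 and 0.32 in Xid and 2.02 and 0.99 in Btk KO over 6 genes. T cell markers had 0.42 and -0.12 in Xid and 0.50 and 0.29 in Btk KO over 4 genes. Of the NK, red cell and T cell markers 0 passed in limma, with 5, 6 and 0 at an unadjusted p under 0.05 in Btk KO and 0 of each in Xid. With the block 4 NK cell markers rose in Btk KO. Of 5 plasma cell markers on the array 3 passed the filter, with medians of -0.61 and -0.62 in Xid and -0.66 and -0.59 in Btk KO, and 0 passed in limma (1 at an unadjusted p under 0.05 in each line).

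**Figure D4:**
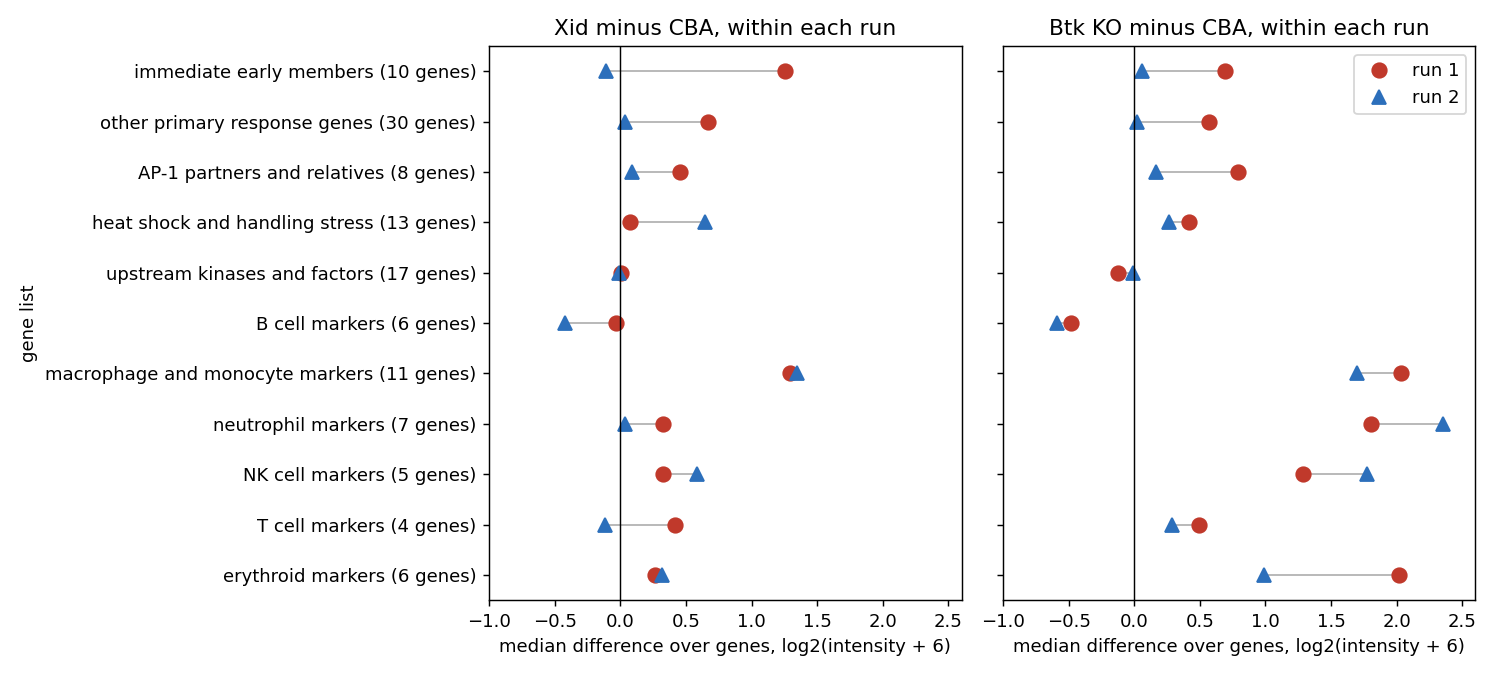
Median difference from CBA over the genes of each list within each run, in log2(intensity + 6), for Xid (left) and Btk KO (right); circles are run 1 and triangles run 2, and the number of genes that passed the filter stands beside each list. The first 3 lists have their circle right of their triangle in both panels, while for macrophage markers in Xid both symbols lie at 1.30 and 1.34.

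The genes whose profile over the 6 arrays was nearest to the mean profile of the 10 immediate early genes were found by the root mean square difference of centred log2 values. The mean profile stood at 0.73 in Xid and 0.30 in Btk KO of run 1 and at -0.25 and -0.20 in run 2, with CBA at -0.51 in run 1 and -0.07 in run 2. Ppp1r15a, a stress-induced phosphatase subunit, was nearest, at 0.11, and measured 602.8 and 278.5 in Xid, 443.8 and 318.8 in Btk KO, and 294.2 and 319.1 in CBA. Per1, a clock gene that is itself inducible, followed at 0.14. Pcm1, Adcy9, Clca1 and Blzf1 came next, at 0.15 to 0.17, and measured at most 75.1 on any array. Among the 10 genes themselves Ier2 at 0.21 and Fos at 0.24 lay nearest and Fosb farthest, at 0.55. The median over all probe sets tested was 0.48. Each of the 10 genes is part of the mean profile, so their own distances are not a like measure to that median. With 6 arrays and 7453 probe sets to choose from, this closeness is a description.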

How the data were processed

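The authors deposited an intensity for each probe set and array. These values are scaled, since every array has a 2% trimmed mean of 100.06. The step from probes to probe sets is not given in the sources used here. Scanner headers served for chip lot and hybridisation day. Symbols came from GEO's platform annotation, and 10817 of 10833 were found in a gene table of GRCm38.p6.

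A pseudocount of 6 was added and log2 taken. Dim probe sets, with a mean log2 below the 40th percentile, an intensity of about 19.8, were left out, which kept 7453. Groups were compared in 1 model of 3 group means with limma 3.58.1 in R 4.3.3 (eBayes with an intensity trend, 3 residual degrees of freedom, two-sided). Benjamini-Hochberg adjustment ran over all 7453, with a threshold of 0.05. The run comparison had the group as a covariate and 2 residual degrees of freedom. The code was tested on simulated data. Figures were drawn with matplotlib 3.10.9.

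The pairing by number comes from the design text, in which 3 arrays were followed by 3 more with RNA of other mice. Deviations from group means were correlated within runs, at 0.31 (Xid with CBA), 0.37 (Btk KO with CBA) and 0.44 (Btk KO with Xid). The alternatives were the run as a block, other normalizations, pseudocounts and filters, no trend, only the groups compared, and each array left out.

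The members and gene lists were chosen with earlier results of these data known. The text names all members, Btk, listed lineage markers, up to 4 genes per list and comparison with the smallest p, and the 6 genes nearest in profile. Marco was named because it did not pass the filter.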

Additional observations from a re-analysis of the deposited data

Results flagged for a closer look

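For 7 immediate early probe sets the difference between the runs had one sign in both mutant lines and the opposite sign in CBA. With 1 array per group and run, this difference between groups was not tested. All 7 were lower in run 2 in both mutant lines and higher in CBA, as were 9.58% of all probe sets tested. The share with the reverse signs was not counted. Run 2 minus run 1, on the log2 scale, was -1.55 in Xid, -1.49 in Btk KO and 1.52 in CBA for Fosb. For Fos it was -0.96 in Xid, -0.67 in Btk KO and 0.49 in CBA. For Jun the values were -1.11 in Xid, -0.21 in Btk KO and 0.60 in CBA. Egr1 had -1.51 in Xid, -1.03 in Btk KO and 0.12 in CBA, and Nr4a1 had -1.21 in Xid, -1.26 in Btk KO and 0.0343 in CBA. For the last 2 genes the CBA arrays were close to equal, so that the opposite sign there rests on a small difference. Egr2 had -0.75 in Xid, -1.26 in Btk KO and 0.74 in CBA. Ier2 had -0.41 in Xid, -0.22 in Btk KO and 0.33 in CBA.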

How the results depend on the processing

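No immediate early probe set passed in any of the 3 group comparisons under any alternative that was run (0 with limma throughout), and the replicate block gave 0 in each as well. The smallest limma adjusted p of a member with the block was 0.31 for Xid minus CBA, 0.298 for Btk KO minus CBA and 0.751 for Btk KO minus Xid. For run 2 minus run 1 the count was 0 in the fits on all 6 arrays. Without either CBA array the run difference was larger for Fosb, Egr1 and Nr4a1, at -1.51, -1.27 and -1.24. The Xid and Btk KO arrays alone set these values, and a single array is left in CBA, so only the size is given. The signs held under the other alternatives with 2 exceptions, both in Btk KO minus CBA. Jund came to 0.12 with quantile normalization (-0.04 as reported, and -0.16 with median centring), and Nr4a1 to -0.0014 with median centring (0.11 as reported). Leaving out single arrays turned signs, and ranges follow on the log2 scale. For Xid minus CBA they were -0.10 to 1.28 for the Junb r_at probe set, -0.85 to 0.37 for Nr4a1, -0.58 to 0.17 for Egr2 and -0.33 to 1.19 for Egr1. For Btk KO minus CBA they were -0.0545 to 0.33 and -0.37 to 0.10 for the Junb probe sets, -0.11 to 0.0227 for Jund, -0.52 to 0.74 for Nr4a1 and -0.995 to 0.26 for Egr2. For Btk KO minus Xid they were -0.90 to 0.22 for Jun, -0.28 to 0.98 for Nr4a1, -0.79 to 0.46 for Egr2, -1.28 to 0.27 for Fosb, -0.37 to 0.27 for Dusp1, -0.90 to 0.0526 for Fos, -0.54 to 0.98 for Egr1 and -0.27 to 0.14 for Ier2. For run 2 minus run 1 they were -0.66 to 0.20 for Jun, -0.12 to 0.39 and -0.66 to 0.27 for the Junb probe sets, -1.51 to 0.0184 for Fosb, -0.0462 to 0.62 for Dusp1 and -0.32 to 0.0539 for Ier2. The cause of these turns was not tested. Over all probe sets the calls were 5 for Xid minus CBA (0 to 36 over the alternatives), 13 for Btk KO minus CBA (0 to 166), 3 for Btk KO minus Xid (0 to 29) and 123 for run 2 minus run 1 (0 to 180). The block gave the highest count in the first 2. With 2 arrays per group the precision is low.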

Other observations

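Of 20 listed kinases and factors upstream of the immediate early genes, 17 passed the filter, with members above and below CBA. Of the 17, 9 were higher in Xid in run 1 and 8 in run 2, against 47.3% and 54.9% of all probe sets tested. In Btk KO 6 of the 17 were higher in each run, against 50.2% and 53.9% of all. Their median difference from CBA was 0.00 in run 1 and -0.01 in run 2 for Xid, and -0.12 and -0.01 for Btk KO. None passed (0 in limma in either line, against 0.0671% of all probe sets tested in Xid and 0.174% in Btk KO). In each line 1 had an unadjusted p under 0.05, against 4.43% of all in Xid and 8.83% in Btk KO. Map2k1, the MAP kinase kinase MEK1, measured 346.8 and 332.4 in Xid, 195.7 and 195.8 in Btk KO, and 196.9 and 209.5 in CBA, so both Xid arrays lay above the other 4. Of all probe sets tested, 17.0% had both Xid arrays above both CBA arrays and 12.3% had them above both Btk KO arrays. The share above all 4 was not counted. The Map2k1 difference of 0.72 ± 0.18 from CBA in Xid had a limma adjusted p of 0.490, and 0.157 with the run as a block. Mknk2, a kinase that acts downstream of the MAP kinases, measured 1004.9 and 1149.2 in Xid, 655.5 and 1034.7 in Btk KO, and 1272 and 1489.6 in CBA, and did not pass. Map2k4, a kinase of the JNK and p38 pathways, measured 52.6 and 72.5 in Xid, 15.6 and 40.2 in Btk KO, and 47.8 and 59.0 in CBA, at -0.90 ± 0.40 in Btk KO (limma adjusted p = 0.580).

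Rgs2, a regulator of G protein signalling, and Klf2, a factor of quiescent lymphocytes, were lower in run 2 in all 3 groups. Rgs2 differed by -0.73 ± 0.15 between run 2 and run 1 (limma adjusted p = 0.0675) and Klf2 by -1.14 ± 0.26 (0.0815). Klf2 measured 178.2 in run 2 and 627.6 in run 1 in Xid, 141 and 370.8 in Btk KO, and 196.2 and 241.4 in CBA.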
